A study of Homo sapiens with 18 samples.

Results

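Aminoacyl-tRNA synthetases are the enzymes that join each amino acid to its transfer RNA, and their genes were followed here across 2 myeloma cell lines treated with amiloride or TG003. The set was a fixed list of 39 gene names, with 19 cytosolic synthetases, 16 mitochondrial synthetases (symbols ending in 2) and 4 partner genes. This set and every list read beside it were chosen with earlier results of these data known. Counts above a background are therefore a description. Of the 39 genes, 37 were measured among 22465 genes, with 1 probe set per gene (the probe set with the highest mean over all arrays). All 19 cytosolic and all 16 mitochondrial members were found, together with 2 of the 4 partners, XPOT and AIMP1. AIMP2 and EEF1E1 are not named in the probe annotation used and were not analysed here.

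RNA was measured on 18 human whole-transcriptome arrays, 3 for each of 6 groups, after 24 h of exposure. KMS12-BM cells received 0.1 mM amiloride, 0.4 mM TG003 or the solvent DMSO, and JJN3 cells received 0.4 mM amiloride, 0.4 mM TG003 or DMSO. All groups grew in RPMI medium with serum, at a serum share that differed between the lines. Both are established lines, and the disease field reads plasma cell leukemia for JJN3 and multiple myeloma for KMS12-BM. Amiloride is a diuretic that blocks epithelial sodium channels and sodium-proton exchange, and TG003 inhibits CLK kinases, which phosphorylate splicing factors. The labels call the extract total RNA, whereas the series text speaks of poly A+ RNA, and nothing in them tells if replicate arrays are from separate cultures. The p-values then measure a spread that may be technical. The dose of amiloride differed between the lines, so line and dose cannot be told apart in any contrast of the 2 amiloride responses.

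Cytosolic and mitochondrial synthetases are all encoded in the nucleus, and most amino acids have a separate gene for each compartment. GARS1 and KARS1 serve both compartments, FARSA and FARSB form a single cytosolic enzyme, and EPRS1 charges both glutamate and proline. Several cytosolic members sit with the scaffold AIMP1 in the multisynthetase complex, and XPOT, exportin-t, carries mature transfer RNA out of the nucleus. When amino acids run short or the kinases of eIF2 are active, the transcription factor ATF4 is made and is known to raise many cytosolic synthetase genes together with amino acid transport and synthesis genes. ATF4 binds DNA as a pair with C/EBP proteins at an element that contains TGATGNAA, where N is any base.

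That element was looked up on both strands in the RefSeq promoter windows of GRCh38.p14, each running from 250 bases before to 50 bases after a gene's start. It lay in 1270 of 35116 windows in the table (3.62%), or in 1217 of 27305 gene symbols (4.46%). A window was given for 16 of the 19 cytosolic members, and 7 of them held the element (43.8%). Of the 14 mitochondrial members with a window, 1 did (7.14%), and none of the 4 partners did. LARS1, VARS1, YARS1, AARS2 and VARS2 had no window in the table. The 8 matches are shown, each in a window of 30 bases, because the cytosolic members that hold one are compared with the others in the amiloride results. Each sequence reads 5′ to 3′ on the gene's strand, with the matching bases in capitals. A match is a description of the letters and not a measured binding site.
AARS1 (cytosolic, alanine), chr16:70289675-70289704, minus strand: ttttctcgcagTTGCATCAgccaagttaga
CARS1 (cytosolic, cysteine), chr11:3057407-3057436, minus strand: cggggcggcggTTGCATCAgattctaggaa
GARS1 (both compartments, glycine), chr7:30594834-30594863, plus strand: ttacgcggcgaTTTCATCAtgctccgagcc
IARS1 (cytosolic, isoleucine), chr9:92293692-92293721, minus strand: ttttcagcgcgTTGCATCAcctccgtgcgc
MARS1 (cytosolic, methionine), chr12:57488053-57488082, plus strand: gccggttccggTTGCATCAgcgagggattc
NARS1 (cytosolic, asparagine), chr18:57621804-57621833, minus strand: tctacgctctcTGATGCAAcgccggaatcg
TARS1 (cytosolic, threonine), chr5:33440956-33440985, plus strand: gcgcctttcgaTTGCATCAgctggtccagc
YARS2 (mitochondrial, tyrosine), chr12:32756076-32756105, minus strand: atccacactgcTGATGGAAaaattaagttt

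Of the 8 matches, 6 read TTGCATCA or its reverse complement TGATGCAA, which is the same site on the other strand. GARS1 read TTTCATCA and YARS2 read TGATGGAA at the free position. In IARS1, MARS1, CARS1, TARS1, NARS1 and GARS1 the match lay near the gene's start, whereas it began at position -187 in AARS1 and at -197 in YARS2, counted from the start. HARS1 and HARS2, the cytosolic and mitochondrial histidine enzymes, lie head to head, and their windows share 184 bases and held no match.

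The deposited values are log2 expression, so a difference of 1 is a factor of 2 on the linear scale. Levels of different genes come from different probes and are not compared here. A background reference of 6.87 was taken from 92 probe sets for spike-in control RNAs (their 95th percentile). Their median was 3.98, beside 3.57 for 23 background control probe sets, of which the highest read 6.65. In group means, 35 of the 37 measured members lay above the reference of 6.87 in at least 1 group and 33 in all 6. SARS2 and VARS2, the mitochondrial serine and valine enzymes, lay below it in every group, so their differences are between low signals. HARS1 lay below it in KMS12-BM with amiloride, and AARS2 in both amiloride groups. Arrays of a group correlated at 0.9955 to 0.9984 over all genes. The third KMS12-BM amiloride array names JJN3 in its cell line field, but its title, source and dose are those of KMS12-BM. It correlated at 0.998 with its own group and at 0.932 with JJN3 amiloride, and it was kept in KMS12-BM. Plasma cell markers were above the reference, except SDC1 in KMS12-BM, which averaged 5.53 to 5.69, and CD38 in JJN3, which averaged 5.63 to 6.28. The plasma cell gene TNFRSF17 fell below it in 1 group, at 6.58 in JJN3 with TG003. All measured T and NK cell, myeloid, stromal and endothelial markers stayed between 3.55 and 5.03, below the reference in all groups. In bulk RNA, fewer cells of a kind and less RNA per cell cannot be told apart.

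In KMS12-BM, amiloride split the cytosolic from the mitochondrial synthetases. Of 19 cytosolic members, 12 rose and 3 fell against DMSO, and 4 were not called. Of 16 mitochondrial members, 1 rose, 6 fell and 9 were not called. The median change was 0.60 over the cytosolic and -0.05 over the mitochondrial members, beside -0.02 over all genes. Over genes above the background reference it was 0.08. After a further quantile normalization the cytosolic and mitochondrial medians were 0.43 and -0.13. A call here is an adjusted p under 0.05 in limma over all genes. By that rule 17% of all genes rose and 13.6% fell, and of the 8536 genes above the background reference in at least 1 group 35.7% rose and 24.2% fell. The share of cytosolic members that rose was above both figures, and the share of mitochondrial members that rose was below both. The mitochondrial members that fell were a larger share than either background. Without the third amiloride array the cytosolic counts were again 12 and 3 and the mitochondrial counts 1 and 6.

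SARS1, which attaches serine to its own transfer RNA and to that for selenocysteine, had the largest change of all members. It read 12.60, 13.09 and 12.77 on the amiloride arrays, against 10.30, 10.54 and 10.42 on the DMSO arrays of KMS12-BM. The amiloride arrays lay far above the DMSO arrays, by 2.40 ± 0.16 (log2 difference ± SE), a 5.27-fold rise (adjusted p = 1.2e-08). CARS1, the cysteine enzyme, read 9.38, 9.92 and 9.59 with amiloride, against 7.74, 7.84 and 7.78 with DMSO. The groups did not overlap, and the rise was 1.85 ± 0.15, or 3.59-fold (adjusted p = 6.7e-08). TARS1, the threonine enzyme, read 13.42, 13.58 and 13.44 with amiloride and 11.86, 12.11 and 11.83 with DMSO. All amiloride arrays were higher, and the difference was 1.55 ± 0.15 (adjusted p = 4.6e-07).

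MARS1, which charges the initiator as well as the elongator methionine transfer RNA, read 13.56, 13.81 and 13.47 with amiloride, against 12.04, 12.11 and 12.06 with DMSO. It rose by 1.54 ± 0.16 (adjusted p = 1.2e-06), with no overlap between groups. WARS1, the tryptophan enzyme, which interferon is also known to induce, read 12.49, 12.44 and 12.37 with amiloride and 11.17, 11.28 and 11.23 with DMSO. Its rise was 1.20 ± 0.13 (adjusted p = 1.7e-06), again without overlap. Smaller rises were measured for the alanine enzyme AARS1 (1.01 ± 0.13), the glycine enzyme GARS1 (0.88 ± 0.15), the asparagine enzyme NARS1 (0.74 ± 0.13), the tyrosine enzyme YARS1 (0.73 ± 0.17), the arginine enzyme RARS1 (0.60 ± 0.13), the leucine enzyme LARS1 (0.54 ± 0.07) and the isoleucine enzyme IARS1 (0.32 ± 0.10). The largest adjusted p among these was 0.024, for IARS1. The IARS1 call was lost without DMSO array 1 or 3 or amiloride array 1 or 2 (adjusted p up to 0.11).

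The cytosolic members that fell were the glutamine enzyme QARS1, the phenylalanine subunit FARSB and the histidine enzyme HARS1. QARS1 read 11.64, 11.75 and 11.54 with amiloride, against 12.40, 12.38 and 12.41 with DMSO, a change of -0.75 ± 0.08 (adjusted p = 2.2e-06). FARSB changed by -0.58 ± 0.10 and HARS1 by -0.40 ± 0.08. FARSA, the other phenylalanine subunit, changed by -0.42 ± 0.16 and was not called (adjusted p = 0.057). EPRS1 (0.24 ± 0.11), the lysine enzyme KARS1 (0.16 ± 0.10) and the valine enzyme VARS1 (-0.20 ± 0.21) overlapped between amiloride and DMSO and were not called.

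Among the mitochondrial members SARS2 had the largest change. It read 5.43, 5.11 and 5.34 with amiloride, against 6.56, 6.36 and 6.77 with DMSO, a difference of -1.27 ± 0.14 (adjusted p = 2.5e-06) between values that all lay below the background reference. The methionine enzyme MARS2 read 10.07, 9.56 and 9.45 with amiloride and 10.31, 10.14 and 10.59 with DMSO. No amiloride array reached the lowest DMSO array, and MARS2 fell by 0.65 on the log2 scale (SE 0.15, adjusted p = 0.0026). The cysteine enzyme CARS2 (-0.55 ± 0.10), the alanine enzyme AARS2 (-0.53 ± 0.11), the tyrosine enzyme YARS2 (-0.31 ± 0.09) and VARS2 (-0.29 ± 0.07) were also lower. AARS2 averaged 6.41 with amiloride, below the reference, against 6.94 with DMSO. The YARS2 call was lost without DMSO array 3 or amiloride array 1 (adjusted p up to 0.082). FARS2, the phenylalanine enzyme, was the mitochondrial member that rose. It read 9.15, 9.77 and 9.43 with amiloride, against 8.76, 8.63 and 8.52 with DMSO, and all amiloride arrays lay higher (0.81 ± 0.16, adjusted p = 0.0008).

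**Figure D1:**
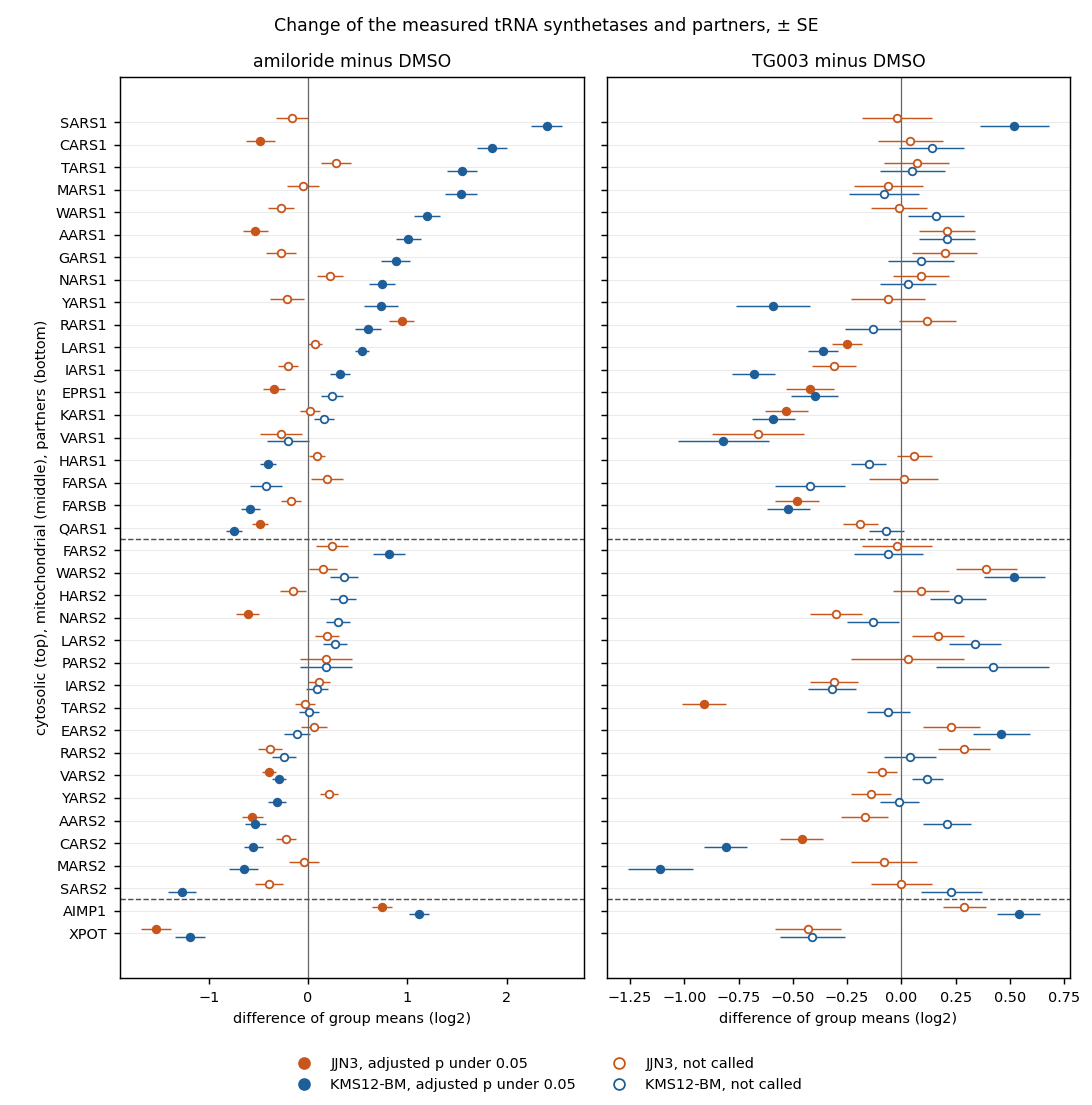
Change of each of the 37 measured members (log2 difference ± SE, n = 3 arrays a group) for amiloride minus DMSO on the left and TG003 minus DMSO on the right, on separate axes, with JJN3 in orange and KMS12-BM in blue and filled points for an adjusted p under 0.05. In KMS12-BM with amiloride most cytosolic points lie right of 0, up to 2.40 for SARS1, whereas the TG003 changes run between -1.11 and 0.54.

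The genes were also compared in pairs for the same amino acid. For 14 amino acids both a cytosolic and a mitochondrial gene were measured (FARSA was taken for phenylalanine). In KMS12-BM with amiloride the change of the cytosolic gene was the greater one in 12 of 14 pairs, with a median difference of 0.84 over all 14. In some pairs both genes moved in the same direction, as did LARS1 and LARS2 at 0.54 against 0.27. The difference was as small as 0.10 for VARS1 and VARS2, at -0.20 against -0.29. SARS1 and SARS2 differed most, at 2.40 against -1.27, with SARS2 below the background reference in every group. CARS1 and CARS2 followed at 1.85 against -0.55, and MARS1 and MARS2 at 1.54 against -0.65. The cytosolic change was the lower one for histidine, with HARS1 at -0.40 and HARS2 at 0.35 (HARS2 not called). It was also the lower one for phenylalanine, with FARSA at -0.42 (not called) and FARS2 at 0.81. In JJN3 with amiloride the cytosolic change was the greater one in 7 of 14 pairs, with a median difference of 0.01. With TG003 it was the greater one in 5 pairs in KMS12-BM (median difference -0.27) and in 8 pairs in JJN3 (0.01). These pairs share arrays and are a description with no test.

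**Figure D2:**
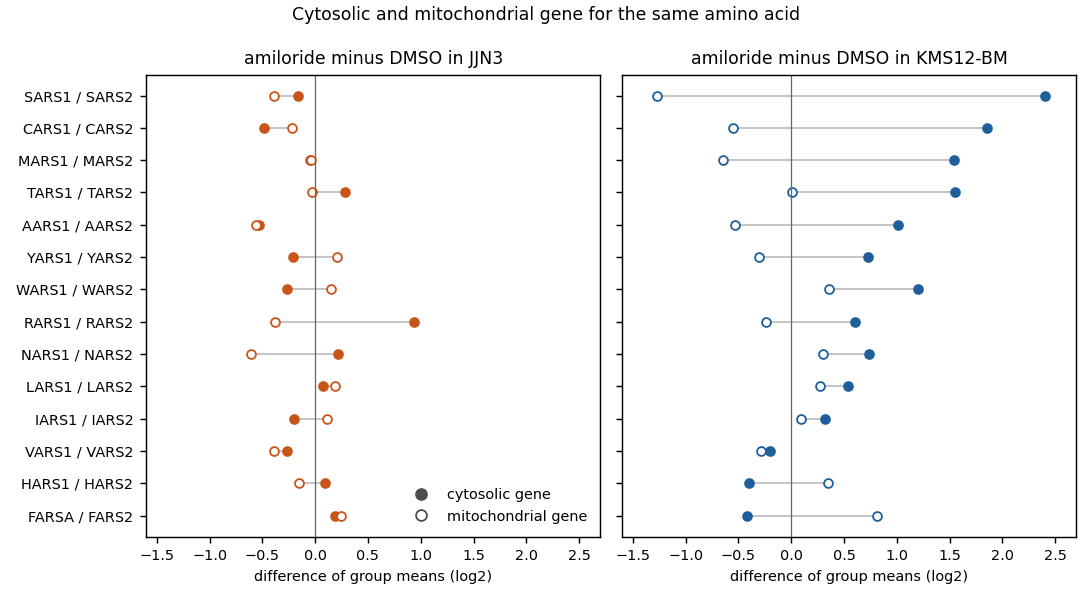
Change under amiloride (log2 difference from DMSO, n = 3 arrays a group) of the cytosolic gene (filled) and the mitochondrial gene (open) for 14 amino acids, in JJN3 on the left and KMS12-BM on the right. The filled point lies right of the open one in 7 of 14 pairs in JJN3 and in 12 of 14 in KMS12-BM.

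The partners moved in opposite directions. AIMP1, the scaffold of the multisynthetase complex, read 11.95, 11.89 and 11.85 in KMS12-BM with amiloride, against 10.73, 10.87 and 10.74 with DMSO, a rise of 1.12 ± 0.10 (adjusted p = 3.7e-07). XPOT read 13.50, 13.72 and 13.55 with amiloride, against 14.70, 14.99 and 14.67 with DMSO, a change of -1.19 ± 0.15 (adjusted p = 7.7e-06). In both genes the amiloride and DMSO arrays lay clear of each other. Of the 8 measured members of the complex (EPRS1, IARS1, KARS1, LARS1, MARS1, QARS1, RARS1 and AIMP1), 5 rose and 1, QARS1, fell. Of the 12 cytosolic members outside it, 8 rose and 2 fell. The background, again, was 35.7% higher and 24.2% lower among genes above the reference. By structural class of the catalytic core, 7 of 10 cytosolic class I and 5 of 9 cytosolic class II members rose. EPRS1 was counted in class I for glutamate only, although it also charges proline, whose enzymes were put in class II.

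The cytosolic members were also read against a list of 13 known from general knowledge as ATF4 targets (AARS1, CARS1, EPRS1, GARS1, IARS1, LARS1, MARS1, NARS1, SARS1, TARS1, VARS1, WARS1 and YARS1). With amiloride in KMS12-BM, 11 of these 13 rose and none fell, beside 35.7% and 24.2% of genes above the reference, with a median of 0.88, and EPRS1 and VARS1 were not called. Of the other 6 cytosolic members, RARS1 rose, FARSB, HARS1 and QARS1 fell, and the median was -0.41. All 7 cytosolic members with TGATGNAA in the promoter window rose, with a median of 1.01 and a lowest value of 0.32 (IARS1). All 7 are also among the 13 textbook targets, so the splits by list and by match are not independent. Of the 9 cytosolic members with a window but no match, 3 rose (SARS1, WARS1 and RARS1), 3 fell and 3 were not called, with a median of 0.16. SARS1, which changed most, held no match in its windows.

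Genes of the ATF4 pathway were measured beside the synthetases from a list of 27. This list and that of the ATF4 targets were chosen with earlier results of these data known, so their counts are a description with no test. In KMS12-BM with amiloride 19 of the 27 rose and none fell, beside 35.7% and 24.2% of genes above the reference, with a median of 0.73. DDIT3, a stress transcription factor, changed by 2.77 ± 0.19, CTH, an enzyme of cysteine synthesis, by 2.43 ± 0.23, SLC3A2, the heavy chain of amino acid transporters, by 2.13 ± 0.12, STC2, a secreted glycoprotein, by 2.02 ± 0.11 and TRIB3, a pseudokinase that ATF4 induces, by 1.80 ± 0.14. In DMSO, DDIT3 (5.72), CTH (6.71) and STC2 (6.51) averaged below the background reference of 6.87, so the size of their changes is uncertain. ATF4 itself rose by 0.44 ± 0.08 (adjusted p = 0.00026). ASNS, asparagine synthetase, changed by 0.18 ± 0.19 and was not called (adjusted p = 0.57).

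JJN3 cells with amiloride showed no such rise of the cytosolic synthetases. Of 37 members 2 rose and 8 fell, where 8.65% of all genes rose and 6.12% fell, and 19.6% and 12.3% of genes above the background reference. By compartment, 1 cytosolic member rose and 4 fell, and no mitochondrial member rose and 3 fell. The median change was -0.17 over the cytosolic and -0.03 over the mitochondrial members, beside -0.02 over all genes. Over genes above the background reference it was 0.06. The members that fell were a larger share than the background share, and those that rose a smaller one.

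RARS1 rose in JJN3. It read 13.35, 13.29 and 13.73 with amiloride, against 12.59, 12.57 and 12.38 with DMSO, with no overlap (0.94 ± 0.13, adjusted p = 0.00011). AIMP1, which binds RARS1 in the complex, read 12.49, 12.68 and 12.91 with amiloride, against 11.88, 11.96 and 12 with DMSO, and rose by 0.74 ± 0.10 (adjusted p = 0.00015). XPOT read 11.71, 12.23 and 11.99 with amiloride, against 13.45, 13.63 and 13.44 with DMSO. It changed more than any other member in JJN3, by -1.53 ± 0.15 (adjusted p = 8.3e-06), and every amiloride array lay below every DMSO array.

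AARS1 read 13.95, 13.95 and 13.49 in JJN3 with amiloride, against 14.33, 14.39 and 14.26 with DMSO, and was lower by every array (-0.53 ± 0.13, adjusted p = 0.013). CARS1 read 7.52, 7.48 and 7.35 with amiloride, against 7.90, 8.04 and 7.85 with DMSO (-0.48 ± 0.15, adjusted p = 0.037). QARS1 read 11.45, 11.35 and 11.10 with amiloride, against 11.77, 11.73 and 11.86 with DMSO (-0.48 ± 0.08, adjusted p = 0.00072). In all 3 genes the amiloride arrays lay below the DMSO arrays. EPRS1 read 12.96, 13.20 and 13.30 with amiloride, against 13.51, 13.61 and 13.35 with DMSO (-0.34 ± 0.11, adjusted p = 0.04999, at the edge of the threshold). The EPRS1 call was lost without 4 of the 6 arrays and that of CARS1 without any 1 of the 6. AARS1 was lost without DMSO array 2 or amiloride array 3.

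The mitochondrial members that fell in JJN3 were NARS2, AARS2 and VARS2. NARS2, the asparagine enzyme, read 9.97, 10.02 and 9.68 with amiloride, against 10.52, 10.51 and 10.47 with DMSO, a difference of -0.61 ± 0.12 (adjusted p = 0.0021) without overlap. AARS2 read 6.82, 6.69 and 6.27 with amiloride, against 7.19, 7.17 and 7.09 with DMSO (-0.56 ± 0.11, adjusted p = 0.0033), with the amiloride arrays below the background reference. VARS2 read 5.66, 5.63 and 5.49 with amiloride, against 6.02, 5.93 and 5.98 with DMSO (-0.39 ± 0.07, adjusted p = 0.00071), all below the reference. The arginine enzyme RARS2 changed by -0.38 ± 0.12 and just missed the threshold (adjusted p = 0.0505). The other 12 mitochondrial members were not called either.

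Across the 2 lines, RARS1 and AIMP1 rose with amiloride in both, and QARS1, XPOT, AARS2 and VARS2 fell in both. VARS2 lay below the background reference in every group. AARS1 and CARS1 rose in KMS12-BM and fell in JJN3, and no member fell in KMS12-BM and rose in JJN3. The share of all genes called alike or oppositely in both lines was not computed, so this overlap is a description. The 7 cytosolic members with a promoter match, all of which rose in KMS12-BM, gave no rise in JJN3, where AARS1 and CARS1 fell and the median was -0.20. Of the 13 textbook ATF4 targets, which include those 7, none rose and 3 fell in JJN3, with a median of -0.21. In the ATF4 pathway list none of 27 rose and 12 fell there, beside 19.6% and 12.3% of genes above the reference, with DDIT4, an inhibitor of mTOR signalling, at -2.13 ± 0.35, ALDH1L2, a mitochondrial folate enzyme, at -1.96 ± 0.19, and the serine synthesis enzymes PHGDH at -1.70 ± 0.13 and PSAT1 at -1.42 ± 0.26. ATF4 (-0.07 ± 0.08), DDIT3 (0.03 ± 0.19) and TRIB3 (-0.20 ± 0.14) were not called in JJN3, where DDIT3 averaged below the reference in both groups, and ASNS changed by -0.72 ± 0.19 (adjusted p = 0.015).

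**Figure D3:**
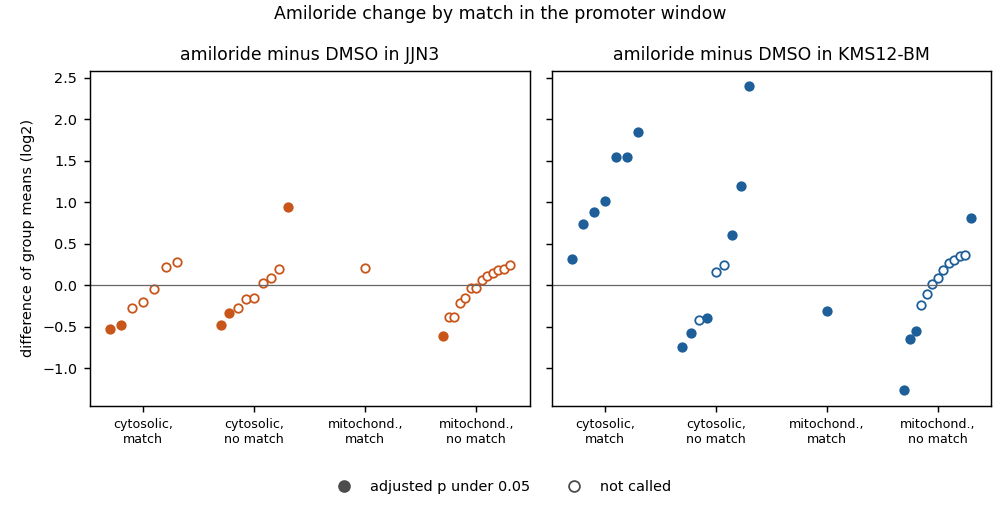
Amiloride minus DMSO (log2 difference, n = 3 arrays a group) for cytosolic and mitochondrial members with and without TGATGNAA on either strand of the promoter window, in JJN3 on the left and KMS12-BM on the right, with filled points for an adjusted p under 0.05. All 7 cytosolic members with a match lie above 0 and are called in KMS12-BM, while none of them rose in JJN3.

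The difference between the responses was tested directly as an interaction term, JJN3 minus KMS12-BM in amiloride minus DMSO. Of 37 members 12 were lower and 3 higher in that difference, where 9.78% of all genes were lower and 8.68% higher, and 20.4% and 17.3% of genes above the background reference. The share that was lower was above both backgrounds, and the share that was higher was not. The lower ones were 11 of the 19 cytosolic members and NARS2. SARS1 changed by -0.16 in JJN3 and by 2.40 in KMS12-BM, a difference of -2.56 ± 0.23 (adjusted p = 1.7e-06). For CARS1 the changes were -0.48 and 1.85, a difference of -2.32 ± 0.21 (adjusted p = 1.7e-06). For MARS1 they were -0.05 and 1.54, a difference of -1.59 ± 0.23 (adjusted p = 0.00012).

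The other cytosolic members with a lower response in JJN3 were AARS1 (-1.53 ± 0.19), WARS1 (-1.47 ± 0.18), TARS1 (-1.26 ± 0.21), GARS1 (-1.14 ± 0.21), YARS1 (-0.94 ± 0.24), EPRS1 (-0.58 ± 0.15), IARS1 (-0.53 ± 0.15) and LARS1 (-0.47 ± 0.09). All 11 are among the 13 textbook ATF4 targets, whose median difference was -1.14, against 0.38 in the other 6 cytosolic members. NARS1 (-0.52 ± 0.19, adjusted p = 0.069) and VARS1 (-0.07 ± 0.29) were the remaining 2 of the 13 and were not called. The members with a higher response in JJN3 were SARS2 (0.88 ± 0.20), YARS2 (0.51 ± 0.13) and HARS1 (0.50 ± 0.11), each of which fell in KMS12-BM. The IARS1 call was lost without KMS12-BM amiloride array 2. In the ATF4 pathway list 23 of 27 had a lower response in JJN3 and none a higher one, beside 20.4% and 17.3% of genes above the reference. XPOT (-0.34 ± 0.21) and AIMP1 (-0.37 ± 0.15) were not called.

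**Figure D4:**
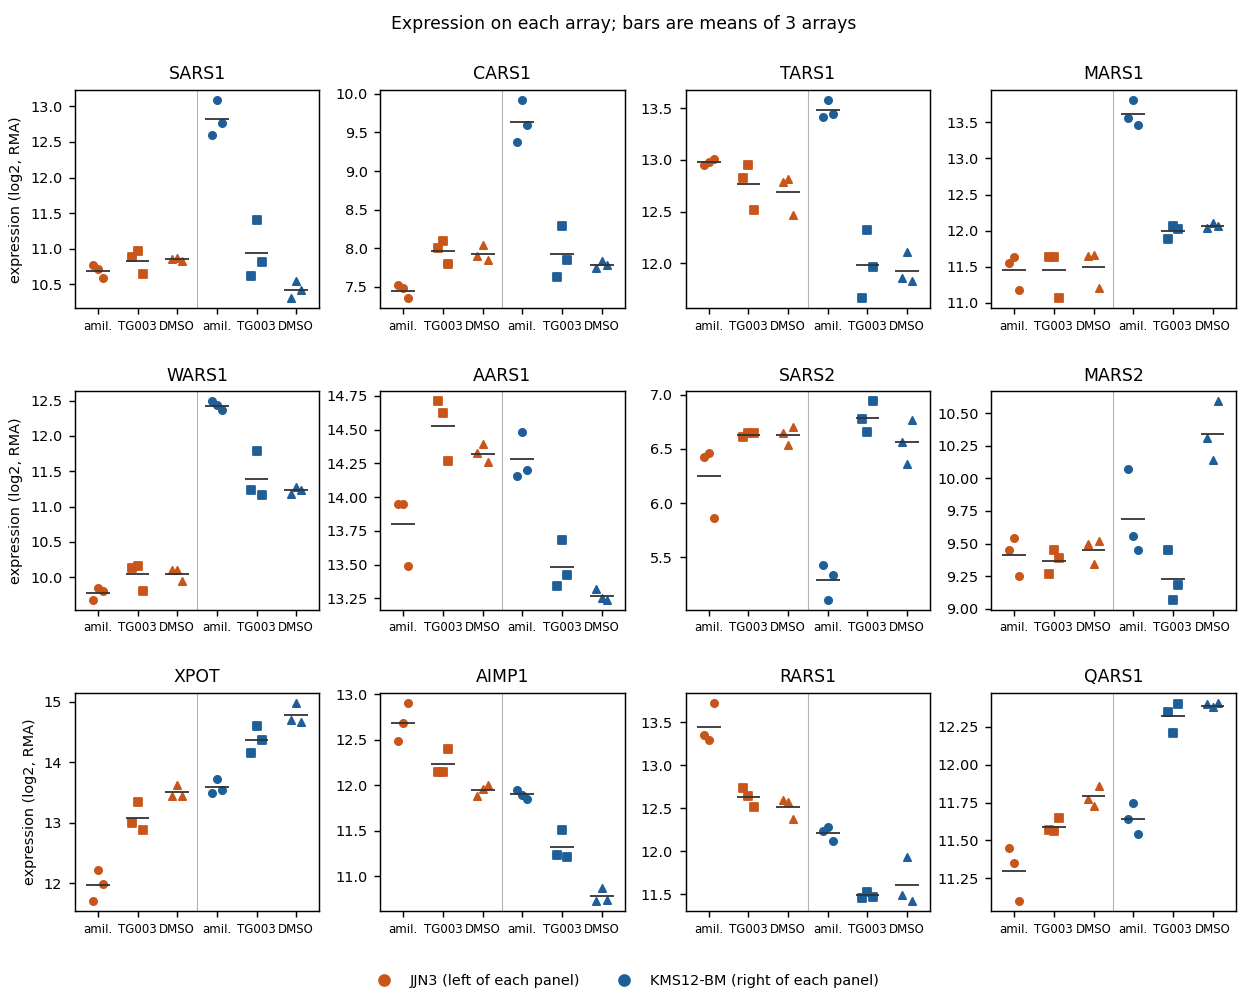
Expression (log2 RMA values) of 12 members on each of the 18 arrays, in panels with JJN3 on the left in orange and KMS12-BM on the right in blue and with amiloride, TG003 and DMSO in that order, where bars are means of 3 arrays. SARS1 reads 12.60 to 13.09 in KMS12-BM with amiloride and at most 11.40 in every other group, while XPOT is lowest with amiloride in each line.

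TG003 gave fewer and smaller changes, and most of them were falls. In KMS12-BM 4 of 37 members rose and 9 fell, where 8.3% of all genes rose and 6.52% fell, and 16.4% and 14.2% of genes above the background reference. The count of falls was above both background shares. By compartment, 1 cytosolic member rose and 7 fell, and 2 mitochondrial members rose and 2 fell. The medians were -0.13 over the cytosolic and 0.08 over the mitochondrial members, beside -0.01 over all genes and 0.02 over genes above the reference. The second TG003 array stood above the other 2 for SARS1, CARS1, TARS1, NARS1, GARS1 and WARS1. Without it 1 member, AIMP1, rose and 9 fell, and without the third DMSO array 1 rose and 7 fell.

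MARS2 had the largest TG003 change in KMS12-BM. It read 9.45, 9.07 and 9.18 with TG003, against 10.31, 10.14 and 10.59 with DMSO, a difference of -1.11 ± 0.15 (adjusted p = 0.00011), with the groups well apart. CARS2 read 8.07, 7.77 and 7.92 with TG003, against 8.82, 8.76 and 8.60 with DMSO (-0.81 ± 0.10, adjusted p = 3.4e-05), also without overlap. WARS2, the tryptophan enzyme, read 7.64, 8.19 and 7.63 with TG003, against 7.32, 7.47 and 7.09 with DMSO, and its call (0.52 ± 0.14, adjusted p = 0.017) was lost without TG003 array 2 or DMSO array 3. The glutamate enzyme EARS2 (0.46 ± 0.13, adjusted p = 0.024) was the other mitochondrial rise, and its call was lost without 4 of the 6 arrays.

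VARS1 read 8.80, 8.48 and 9.0 with TG003, against 9.67, 9.33 and 9.73 with DMSO, and every TG003 array was lower (-0.82 ± 0.21, adjusted p = 0.012). The mean of its 7 probe sets gave the same direction and call. The probe set used is named for a haplotype of chromosome 6, so the 7 may be copies of 1 locus and no separate support. IARS1 read 13.20, 13.17 and 13.36 with TG003, against 13.90, 14.06 and 13.81 with DMSO (-0.68 ± 0.10, adjusted p = 0.00029). The TG003 and DMSO arrays did not overlap for either gene. YARS1 read 9.69, 9.62 and 9.75 with TG003, against 10.36, 10.10 and 10.39 with DMSO (-0.59 ± 0.17, adjusted p = 0.028). KARS1 read 11.77, 11.77 and 11.81 with TG003, against 12.26, 12.58 and 12.27 with DMSO (-0.59 ± 0.10, adjusted p = 0.00052). FARSB (-0.52 ± 0.10), EPRS1 (-0.40 ± 0.11) and LARS1 (-0.36 ± 0.07) were the other cytosolic members that fell. The VARS1 call was lost without DMSO array 3 or TG003 array 2, that of EPRS1 without DMSO array 2 or TG003 array 1, and that of YARS1 without 5 of the 6 arrays.

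SARS1 read 10.62, 11.40 and 10.81 with TG003, against 10.30, 10.54 and 10.42 with DMSO, with the second TG003 array highest (0.52 ± 0.16, adjusted p = 0.037). Without that array the change was 0.30 and was not called (adjusted p = 0.19), and the call was also lost without DMSO array 1 or 3. AIMP1 read 11.23, 11.51 and 11.21 with TG003, against 10.73, 10.87 and 10.74 with DMSO, and rose by 0.54 ± 0.10 (adjusted p = 0.0019). XPOT changed by -0.41 ± 0.15 and was not called (adjusted p = 0.079). In the ATF4 pathway list 4 of 27 rose and none fell, a share of rises near the 16.4% of genes above the reference, with DDIT3 at 0.80 ± 0.19, ASNS at 0.69 ± 0.19, SESN2, a sensor of leucine, at 0.46 ± 0.12 and ATF4 at 0.35 ± 0.08, while TRIB3 (0.19 ± 0.14) was not called. DDIT3 averaged 6.51 with TG003 and 5.72 with DMSO, and SESN2 6.73 and 6.27, all below the background reference.

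In JJN3 with TG003 no member rose and 6 fell, where 3.74% of all genes rose and 5.64% fell, and 7.11% and 11.9% of genes above the background reference. With the arrays' replicate number as a block in the fit, 1 member rose and 10 fell. The 6 falls of the main fit were 4 cytosolic and 2 mitochondrial members. Leaving out 1 array at a time gave 4 to 7 calls, so the count is near the 11.9% of genes above the reference. TARS2, the mitochondrial threonine enzyme, read 10.25, 10.32 and 9.92 with TG003, against 11.14, 11.02 and 11.07 with DMSO. The highest TG003 array lay well below the lowest DMSO array, and the difference was -0.91 ± 0.10 (adjusted p = 3.7e-05). CARS2 read 7.11, 7.17 and 7.06 with TG003, against 7.51, 7.60 and 7.63 with DMSO (-0.46 ± 0.10, adjusted p = 0.0048).

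KARS1 read 13.23, 13.17 and 13.27 in JJN3 with TG003, against 13.77, 13.75 and 13.74 with DMSO, and the arrays of each group lay close together (-0.53 ± 0.10, adjusted p = 0.0019). FARSB read 13.84, 14.03 and 14.03 with TG003, against 14.42, 14.50 and 14.42 with DMSO (-0.48 ± 0.10, adjusted p = 0.0061). EPRS1 read 13.16, 13.16 and 12.90 with TG003, against 13.51, 13.61 and 13.35 with DMSO (-0.42 ± 0.11, adjusted p = 0.024). None of these groups overlapped. LARS1 read 12.82, 12.76 and 12.69 with TG003, against 12.98, 13.04 and 13.01 with DMSO (-0.25 ± 0.07, adjusted p = 0.028). The LARS1 call was lost without 5 of the 6 arrays and that of EPRS1 without DMSO array 1 or 2 or TG003 array 3. VARS1 (-0.66 ± 0.21, adjusted p = 0.058), XPOT (-0.43 ± 0.15, adjusted p = 0.087) and AIMP1 (0.29 ± 0.10, adjusted p = 0.1) were not called. In the ATF4 pathway list 1 of 27 rose, ATF4 itself (0.59 ± 0.08), and 3 fell, DDIT4 (-1.69 ± 0.35), VLDLR (-0.48 ± 0.08) and SHMT2 (-0.43 ± 0.12), a share of falls near the 11.9% of genes above the reference. VLDLR averaged 4.56 with TG003 and 5.05 with DMSO, both below the reference. DDIT3 (0.15 ± 0.19), ASNS (0.43 ± 0.19) and TRIB3 (-0.24 ± 0.14) were not called.

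With TG003, 5 members fell in both lines (KARS1, FARSB, CARS2, EPRS1 and LARS1), none rose in both and none was called in opposite directions. The share of all genes that fell in both lines was not computed, so this overlap is a description. The EPRS1 call in each line and the LARS1 call in JJN3 were lost without some single array. The test of the difference between the TG003 responses called 2 members, where 1.92% of all genes were higher and 2.64% lower, and 4.04% and 5.52% of genes above the background reference. MARS2 changed by -0.08 in JJN3 and by -1.11 in KMS12-BM, a difference of 1.03 ± 0.21 (adjusted p = 0.011). TARS2 changed by -0.91 in JJN3 and by -0.06 in KMS12-BM, a difference of -0.85 ± 0.15 (adjusted p = 0.0034). Both are mitochondrial enzymes. A count of 1 in each direction is near the background, and after a further quantile normalization 4 members were called, 3 higher and 1 lower.

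Amiloride and TG003 share the DMSO arrays of each line, so the 2 drugs were also contrasted directly. That contrast takes no DMSO mean, but the DMSO arrays were in the fit and shared in its estimate of the spread. The doses differed in KMS12-BM (0.1 mM amiloride, 0.4 mM TG003) and were both 0.4 mM in JJN3. In KMS12-BM 20 members were higher and 8 lower with amiloride than with TG003, where 15.8% of all genes were higher and 14% lower, and 34.1% and 25.1% of genes above the background reference. All 13 textbook ATF4 targets were among the higher ones, led by SARS1 (1.87 ± 0.16), CARS1 (1.70 ± 0.15), MARS1 (1.62 ± 0.16) and TARS1 (1.50 ± 0.15). Against DMSO, VARS1, 1 of the 13, changed by -0.20 with amiloride, not called, and by -0.82 with TG003. Its call in the contrast of the drugs was lost without 4 of the 6 arrays (adjusted p up to 0.14 in limma). SARS2 (-1.50 ± 0.14), XPOT (-0.78 ± 0.15) and AARS2 (-0.75 ± 0.11) were the lowest. The share of members that were higher was above both backgrounds.

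In JJN3, at the same dose of both drugs, 8 members were higher and 8 lower with amiloride than with TG003, where 10.5% of all genes were higher and 6.41% lower, and 23.5% and 10.8% of genes above the background reference. TARS2 (0.88 ± 0.10), RARS1 (0.83 ± 0.13), KARS1 (0.55 ± 0.10) and AIMP1 (0.45 ± 0.10) were highest, and XPOT (-1.10 ± 0.15), AARS1 (-0.74 ± 0.13), RARS2 (-0.67 ± 0.12) and CARS1 (-0.51 ± 0.15) were lowest. The share that was lower was above both backgrounds, whereas the share that was higher lay below that of genes above the reference. The CARS1 call was lost without 4 of the 6 arrays. The balance of this contrast moved with the scaling, to 5 higher and 13 lower after a further quantile normalization and to 8 higher and 5 lower with arrays centred on their medians. A fit on the amiloride and TG003 arrays of JJN3 alone called 10 members, 5 higher and 5 lower.

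Taking all cytosolic members of an array together, the mean over the 19 minus the mean over the 16 mitochondrial members was 4.03, 4.01 and 3.99 in KMS12-BM with amiloride, 3.07, 3.12 and 3.16 with TG003 and 3.27, 3.34 and 3.33 with DMSO. Only the change of this difference can be read, since its level depends on the probes. Against DMSO it changed by 0.70 with amiloride and by -0.20 with TG003 in KMS12-BM, where the SD between arrays of a group, pooled over the groups, was 0.05. The 0.70 was made of 0.60 in the cytosolic mean and -0.10 in the mitochondrial mean. In JJN3 it was 3.74, 3.74 and 3.83 with amiloride, 3.72, 3.73 and 3.71 with TG003 and 3.81, 3.78 and 3.67 with DMSO. The arrays of the JJN3 groups overlapped or lay close together, with changes of 0.02 for amiloride and -0.03 for TG003.

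**Figure D5:**
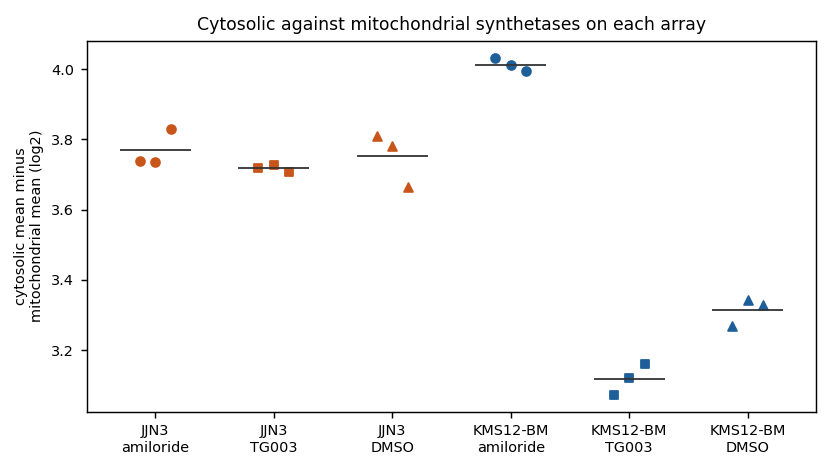
Mean of the 19 cytosolic members minus mean of the 16 mitochondrial members on each array (log2), by group, with bars at the mean of 3 arrays. KMS12-BM with amiloride averages 4.01, above 3.12 with TG003 and 3.31 with DMSO, while the JJN3 groups average 3.72 to 3.77.

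The lines differed before any drug. In DMSO 14 members were higher and 12 lower in JJN3 than in KMS12-BM, where 18.9% of all genes were higher and 22.3% lower, and 33.1% and 40.7% of genes above the background reference. By compartment, 10 cytosolic members were higher and 5 lower, and 3 mitochondrial members were higher and 6 lower. The members' total lay near the share of all expressed genes that differ between the lines. KARS1 read 13.77, 13.75 and 13.74 in JJN3, against 12.26, 12.58 and 12.27 in KMS12-BM (1.38 ± 0.10, adjusted p = 3.6e-09). YARS1 read 11.80, 11.59 and 11.29 in JJN3, against 10.36, 10.10 and 10.39 in KMS12-BM (1.28 ± 0.17, adjusted p = 1e-05). VARS1 read 11.02, 10.75 and 10.68 in JJN3, against 9.67, 9.33 and 9.73 in KMS12-BM (1.24 ± 0.21, adjusted p = 9e-05). All JJN3 arrays were higher in these 3 genes.

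WARS2 read 8.47, 8.72 and 8.64 in JJN3, against 7.32, 7.47 and 7.09 in KMS12-BM (1.31 ± 0.14, adjusted p = 6.3e-07). CARS2 read 7.51, 7.60 and 7.63 in JJN3, against 8.82, 8.76 and 8.60 in KMS12-BM (-1.15 ± 0.10, adjusted p = 3.5e-08). Neither gene overlapped between the lines. XPOT read 13.45, 13.63 and 13.44 in JJN3, against 14.70, 14.99 and 14.67 in KMS12-BM (-1.28 ± 0.15, adjusted p = 1.8e-06). AIMP1 was higher in JJN3 (1.17 ± 0.10) and WARS1 lower (-1.18 ± 0.13). Of the members that rose most with amiloride in KMS12-BM, CARS1 (0.14 ± 0.15) did not pass the test between the lines in DMSO, TARS1 (0.76 ± 0.15) and SARS1 (0.43 ± 0.16) were higher in JJN3, and MARS1 (-0.57 ± 0.16) was lower. The SARS1 call was lost without 5 of the 6 arrays, and that of MARS1 without JJN3 DMSO array 3.

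Among the 37 members, 6 were called in none of the 4 comparisons of a drug with DMSO: FARSA, HARS2, IARS2, LARS2, PARS2 and RARS2. Their changes ran from -0.42 (FARSA, with either drug in KMS12-BM) to 0.42 (PARS2, the proline enzyme, with TG003 in KMS12-BM). PARS2 had a wide spread, with an SE of 0.26 in each comparison. HARS2 (0.99 ± 0.13) was higher in JJN3 than in KMS12-BM in DMSO, and the isoleucine enzyme IARS2 (-0.82 ± 0.11) and RARS2 (-1.12 ± 0.12) were lower. The leucine enzyme LARS2 changed by 0.27 and 0.34 with amiloride and TG003 in KMS12-BM and by 0.19 and 0.17 in JJN3.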

How the data were processed

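Expression was measured on 18 arrays (3 in each of 6 groups). Per the submitters' processing notes the deposited values were made with RMA and are log2 expression, 1 value per probe set. A genome build was not given in the sources used here. Of 70523 probe sets, 23781 carry 1 gene symbol in the platform annotation, 1543 carry several and 45199 are not listed. The probe set with the highest mean represented each of 22465 genes (479 had more than 1). Groups came from the labels. The members and lists were chosen with earlier results of these data known.

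limma 3.58.1 in R 4.3.3 (lmFit, 6 group means, eBayes, 12 residual degrees of freedom) tested 9 contrasts, with p-values adjusted by Benjamini-Hochberg across the 22465 genes and called under 0.05. A simulation with independent noise checked only that large known changes were recovered. It set no requirement for smaller ones, such as many of those called here. Python 3.11.15 made the tables and figures. Any member may be named. Values per array are given, per drug comparison, for up to 5 cytosolic, 3 mitochondrial and 2 partner calls with the largest changes, and for up to 3, 2 and 1 in the other comparisons, with some further members added after their values were seen. From each list of other genes up to 4 calls, and always ATF4, DDIT3, ASNS and TRIB3, are named. Replicate numbers follow a serial code in the titles and were not treated as pairs.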

Additional observations from a re-analysis of the deposited data

Results flagged for a closer look

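The response to amiloride differed between JJN3 and KMS12-BM in 15 members, by the limma interaction term with Benjamini-Hochberg adjustment over all genes. It was lower in JJN3 for SARS1 (-2.56), CARS1 (-2.32), MARS1 (-1.59), AARS1 (-1.53), WARS1 (-1.47), TARS1 (-1.26), GARS1 (-1.14), YARS1 (-0.94), NARS2 (-0.91), EPRS1 (-0.58), IARS1 (-0.53) and LARS1 (-0.47), in log2 units. It was higher in JJN3 for SARS2 (0.88), YARS2 (0.51) and HARS1 (0.50). JJN3 received 0.4 mM and KMS12-BM 0.1 mM, so line and dose cannot be told apart.

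The response to TG003, at 0.4 mM in both lines, differed for TARS2 (-0.85) and MARS2 (1.03) by the same test.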

How the results depend on the processing

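Of 711 repeats of 48 single-gene results under other settings, 663 kept direction and call, 48 lost the call and none reversed, and 39 of the 48 results kept the call in all of theirs. These 48 were the calls with the largest changes, without the contrasts of amiloride with TG003. Among all calls, the loss of some 1 array undid 2 of 24 for amiloride and 6 of 13 for TG003 in KMS12-BM. In JJN3 it undid 3 of 10 and 2 of 6. For amiloride minus TG003 it undid 6 of 28 in KMS12-BM and 7 of 16 in JJN3. Leaving out 1 array at a time gave the following numbers of called members: 23 to 30 for amiloride in KMS12-BM, 7 to 9 for amiloride in JJN3, 8 to 11 for TG003 in KMS12-BM (8 without DMSO array 3), 4 to 7 for TG003 in JJN3, 24 to 26 between the lines, 14 to 20 and 2 to 2 for the differences in the amiloride and TG003 responses, and 24 to 27 and 11 to 14 for amiloride minus TG003 in KMS12-BM and JJN3. The cytosolic minus mitochondrial change was 0.68 to 0.71 for amiloride and -0.22 to -0.17 for TG003 in KMS12-BM, -0.03 to 0.05 for amiloride and -0.08 to -0.01 for TG003 in JJN3, and 0.41 to 0.48 between the lines (0.38 without GARS1 and KARS1). With the replicate number as a block, TG003 in JJN3 called 11 members (1 higher, 10 lower) and no other count moved by more than 1.5 times. The block gave 18 higher and 11 lower for amiloride in KMS12-BM, and 5 higher and 12 lower for TG003 in KMS12-BM. Of the 18 arrays 15 correlated best with their own number, a hint from the data. All same-numbered correlations passed 0.1 in 4 of 15 group pairs. In the titles each number is an unbroken run of serial codes that holds every group once. The arrays may therefore form blocks, which the labels do not state and the main fit leaves out. Further quantile normalization called 4 members in the TG003 response difference (3 higher, 1 lower), 1 higher and 5 lower for TG003 in JJN3, and 6 higher and 13 lower in the amiloride response difference. A fit on only the groups compared called 10 members for amiloride minus TG003 in JJN3 (5 higher, 5 lower). The cause of these shifts was not tested. Omitting the third KMS12-BM amiloride or the second KMS12-BM TG003 array was chosen as a repeat of the counts by compartment after the data were seen. Precision is limited by 3 arrays a group, and SARS2 and VARS2 by signals below the background reference.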

Other observations

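Other gene lists around the synthetases were counted with amiloride, where 35.7% of genes above the background reference rose and 24.2% fell in KMS12-BM, and 19.6% rose and 12.3% fell in JJN3. Of 13 genes of the eIF2 kinases and of eIF2B, the exchange factor that recycles eIF2, 8 rose and 3 fell, with EIF2B2, an eIF2B subunit, at 2.34, EIF2AK4, the kinase that senses uncharged transfer RNA, at 1.16, EIF2AK2, which senses double-stranded RNA, at -1.58 and GCN1, which activates EIF2AK4, at -1.38 (log2 differences from DMSO in KMS12-BM). EIF2AK2 averaged 6.60 with amiloride, below the reference of 6.87, and 8.18 with DMSO. In JJN3 with amiloride 5 of the 13 rose and 1 fell, with EIF2B2 at 1.09 and EIF2S1, the alpha subunit of eIF2, at 0.75. Of 18 genes of transfer RNA transcription 9 rose and 3 fell in KMS12-BM, with MAF1, a repressor of RNA polymerase III, at 1.26 and POLR3G, a polymerase subunit, at -1.08, and in JJN3 6 rose and 1 fell. Of 14 genes of mitochondrial translation and transfer RNA maturation 7 rose and 3 fell in KMS12-BM and 7 rose and none fell in JJN3, and the initiation factor MTIF2 rose in both (1.34 in KMS12-BM, 1.28 in JJN3).

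Of 10 further charging genes 2 rose and 4 fell with amiloride in KMS12-BM, and 4 rose and 1 fell in JJN3, and the KMS12-BM share called was near that of genes above the reference. MTFMT, which formylates the mitochondrial initiator, changed by -1.57 in KMS12-BM, and QRSL1, a subunit of the enzyme that makes mitochondrial glutaminyl-tRNA, by 1.25 in KMS12-BM and 0.67 in JJN3. Of 5 cytosolic elongation genes 1 rose and 2 fell in KMS12-BM, and none rose and 1 fell in JJN3. In DMSO, IMPACT, an inhibitor of EIF2AK4 activation, averaged 10.40 in JJN3 and 5.0, below the reference, in KMS12-BM, and EIF2AK4 was lower in JJN3 (log2 difference -3.13).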
